A study of Equus caballus with 24 samples.

Results

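The 10 vessel genes PECAM1, CDH5, VWF, BCL6B, TIE1, TEK, KDR, FLT1, FLT4 and STAB2 were followed through the pituitary and the epiphysis of a long bone in Debao ponies (DPs), a small breed, and Mongolian horses (MHs). They are 10 of the 24232 genes in the table of reads, were found by gene name, and were chosen by their known place in endothelium and sinusoids with the measured reads and RPKM of all 8 groups already seen. Their fold changes and p-values are therefore a description of these libraries and support nothing on their own. RNA was sequenced from healthy female horses sampled at a slaughterhouse, in 24 libraries that form 8 groups of 3. A library name gives the breed (DP or MH), the tissue (P for pituitary, LB for long bone) and the stage (J for juvenile, A for adult), so that DPLBJ is the long bone of juvenile Debao ponies and MHPA the pituitary of adult Mongolian horses. The labels name no treatment, give the stage but no age in years, and tie no pituitary library to a long bone library of the same horse. The methods of the study take both tissues from 6 horses of each breed, so libraries of the tissues share horses that the fits across tissues treat as independent.

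Endothelial cells line all blood and lymph vessels. PECAM1 and CDH5 (VE-cadherin) join neighbouring endothelial cells, and PECAM1 is also made by leukocytes and platelets. VWF is the clotting protein that endothelial cells and megakaryocytes store, and BCL6B is a transcriptional repressor found mostly in endothelium. TEK (TIE2) is the receptor of the angiopoietins and TIE1 its partner without a well-established ligand of its own. FLT1, KDR and FLT4 are the receptors of the VEGF family: KDR carries most of the growth signal of VEGFA, FLT1 binds VEGFA tightly and holds it back, and FLT4 is the VEGFC receptor of lymphatic and fenestrated vessels. STAB2 is a scavenger receptor that takes up hyaluronan in the sinusoids, the wide and leaky vessels of liver, spleen, lymph node and bone marrow. In the growing long bone, vessels enter the cartilage where it is replaced by bone, and the anterior pituitary is drained by fenestrated sinusoids.

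All 10 genes were read in all 24 libraries and all 10 passed the filter on low counts in each comparison. Between 11433209 and 27007342 reads per library fell on genes. The tissue is bulk, so fewer vessel cells and less RNA per vessel cell cannot be told apart in any value below. The pituitary libraries differed in the genes of the 2 lobes. The summed RPKM (reads scaled to gene length and to library size) of 9 anterior pituitary hormone genes lay between 20348 and 53244 in 7 libraries, but was 141 in DPPA replicate 1, 2.99 in MHPA replicate 1, and 0.25, 0.32 and 21.2 in the MHPJ libraries. All 3 MHPJ libraries were thus at or near 0 for the genes that define the anterior lobe, and the glia and neural lobe genes summed to between 5450 and 7297 there. In the long bone, MHLBA replicate 1 stood apart with a summed RPKM of 134 for the 10 vessel genes, against 496 to 751 in the other MH libraries. Among pituitary libraries MHPJ replicate 2 had the highest sum, 190, against 46.3 to 103 in the other 11.

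On the scale of RPKM, which corrects for gene length, PECAM1 was the highest of the 10 genes in all 8 groups, with group means from 18.5 RPKM in DPPA to 226 RPKM in MHLBA. CDH5 came next in the 4 long bone groups, with 35.1 to 102 RPKM, and VWF, KDR, TEK and TIE1 followed in an order that changed between groups. FLT1, FLT4 and STAB2 were the lowest in every group except MHPA, where STAB2 (1.21 RPKM) and BCL6B (1.18 RPKM) were level within their spread. Of the VEGF receptors, KDR was thus the abundant one, and its RPKM was 2.50 to 146 times that of FLT1 in the single libraries.

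**Figure D1:**
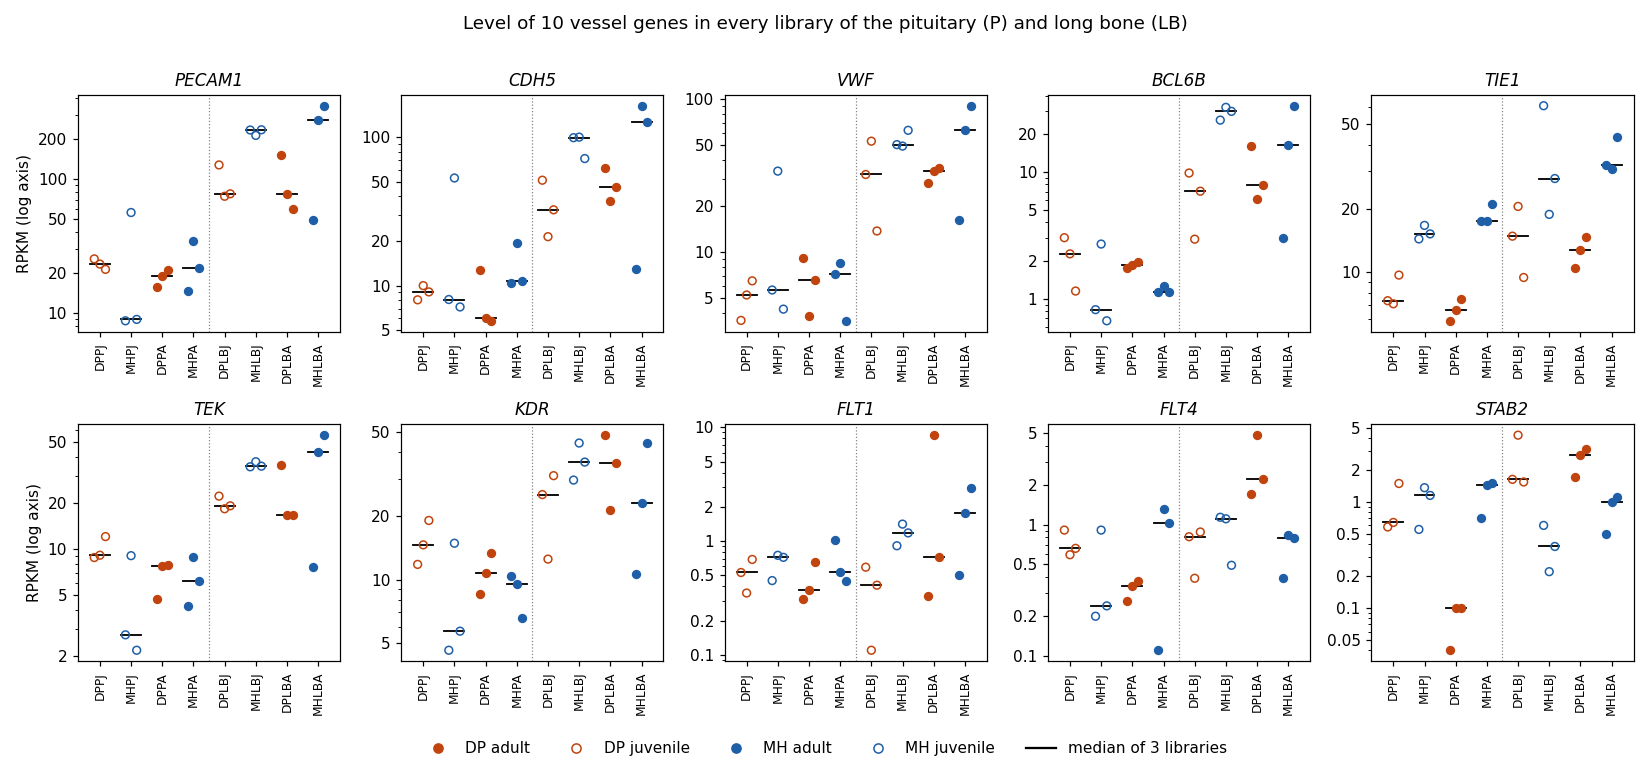
RPKM on a log axis of the 10 vessel genes in every library, with pituitary groups left and long bone groups right of the dotted line; open points are juveniles, filled points adults, and black lines the median of 3 libraries. Most genes lie higher in the long bone, TIE1 is lower in all DP than in all MH pituitary libraries, and STAB2 falls to 0.04 to 0.10 RPKM in DPPA.

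In a fit of all 24 libraries, all 10 genes were called lower in the pituitary than in the long bone at an adjusted p under 0.05, where 61.8% of all 16131 tested genes were called in one direction or the other. The difference was largest for BCL6B, with a log2 fold change (pituitary minus long bone) of -3.18 ± 0.318 (SE), PECAM1 with -2.82 ± 0.309 and VWF with -2.63 ± 0.343. The RPKM of PECAM1 ran from 8.79 over a median of 21.1 to 56.3 in the 12 pituitary libraries and from 49.8 over 139 to 352 in the 12 long bone libraries. TEK fell by 2.14 on the log2 scale (SE 0.248), CDH5 by 2.46 (SE 0.352) and KDR by 1.59 (SE 0.217). Smaller differences were seen for STAB2 (-1.30 ± 0.253), FLT1 (-1.25 ± 0.430), TIE1 (-1.14 ± 0.172) and FLT4 (-1.13 ± 0.334). For STAB2 the lower pituitary level was seen in DPs, with a mean of 4.596 ± 5.06 CPM (SD, n = 6; counts scaled to library size) in the pituitary and 27.8 ± 13.0 CPM in the long bone. In MHs the order was the other way, with 10.7 ± 3.46 CPM in the pituitary and 6.62 ± 3.22 CPM in the long bone. The libraries of the tissues overlapped for 7 of the 10 genes. BCL6B, PECAM1 and TEK did not overlap in CPM, against 7.52% of all tested genes. The call for FLT1 was lost without DPLBA replicate 2, where edgeR gave a log2 fold change of -0.60 and an adjusted p of 0.087. A further fit held a term for each assumed horse, taking libraries of the same breed, stage and replicate number as 1 horse. The labels do not give this pairing, and deviations from group means of such libraries correlated at -0.128 to 0.247. In that fit 8 of 10 were called, and STAB2 (edgeR adjusted p = 0.27) and FLT1 (edgeR adjusted p = 0.168) were not.

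The comparison of breeds asked which vessel genes were differentially expressed genes (DEGs) in each tissue and stage at the threshold of the study, P below 0.05 without adjustment together with more than a 2-fold change. In the juvenile long bone 5 of 10 were DEGs, with PECAM1, CDH5, FLT1 and BCL6B lower and STAB2 higher in DPs, against 13.8% of all tested genes. In the adult long bone 3 of 10 were DEGs, with TIE1 lower and FLT4 and STAB2 higher in DPs, against 18.3%. The adult pituitary gave TIE1 and STAB2, both lower in DPs, against 2.93%, and the juvenile pituitary gave TIE1 alone, lower in DPs, against 20.3%. With edgeR's adjusted p under 0.05 as the call, TIE1 remained in the juvenile pituitary (1 of 10, against 10.7% of all genes) and in the adult long bone (1 of 10, against 2.24%). The adjusted call left 0 of 10 in the adult pituitary (0.0348% of all genes) and 0 of 10 in the juvenile long bone (0% of all genes). There, 3 and 6 of the 10 members had an unadjusted P under 0.05, as had 1310 of 14376 and 2450 of 13755 genes in all. DESeq2 gave 2 and 4 members an adjusted p under 0.05, beside 275 and 1290 genes in all.

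**Figure D2:**
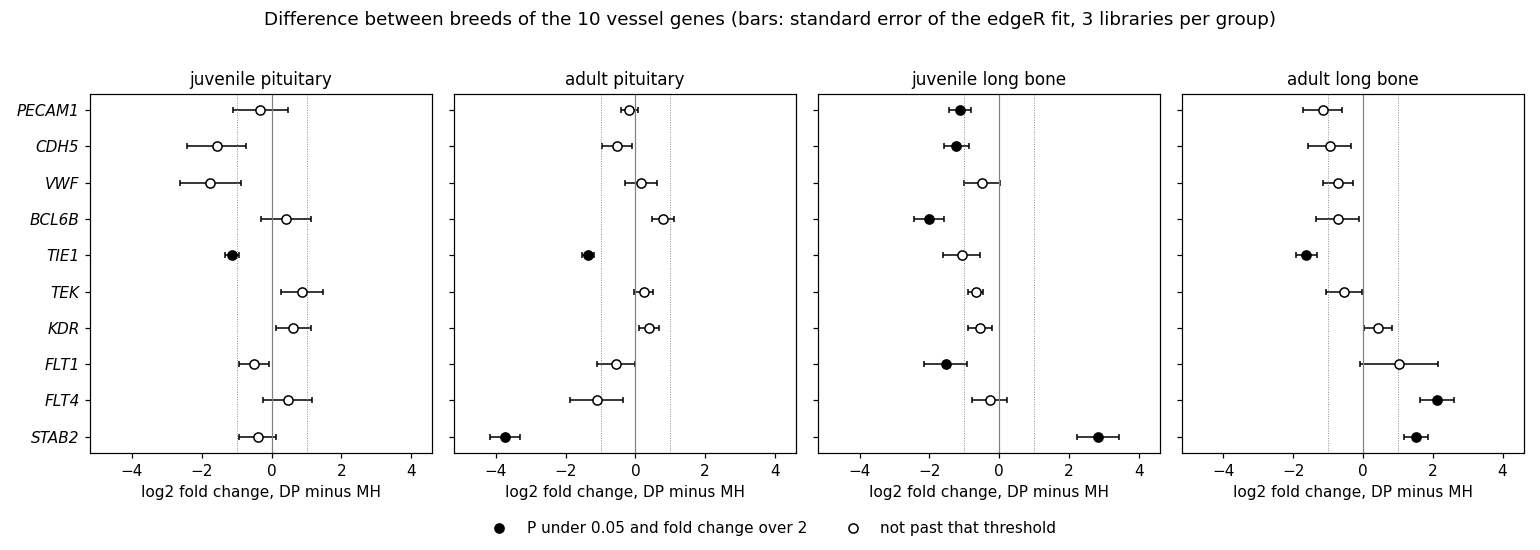
Log2 fold change (DP minus MH) of the 10 vessel genes in each tissue and stage; bars are the standard error of the edgeR fit of 3 against 3 libraries, filled points pass the threshold of P under 0.05 and a fold change over 2, and dotted lines mark a log2 fold change of 1. STAB2 lies at -3.73 in the adult pituitary and at 2.83 and 1.53 in the long bone, and TIE1 lies below -1 in all 4 panels.

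With the stages fitted together as 6 against 6 libraries, 3 of 10 members were called in the long bone at an adjusted p under 0.05, against 17% of all tested genes. PECAM1 and TIE1 were lower and STAB2 was higher in DPs. In the pituitary 1 of 10 was called, TIE1, lower in DPs, against 0.403% of all tested genes. The 6 DP libraries did not overlap with the 6 MH libraries for STAB2 in the long bone, as for 5.63% of all genes there, and for TIE1 in the pituitary, as for 2.55% of all genes there.

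Both junction genes were lower in the juvenile DP long bone. PECAM1 was read at 127, 74.4 and 77.6 RPKM in DPLBJ and at 232, 211 and 233 RPKM in MHLBJ. All 3 DPLBJ libraries lay below all 3 MHLBJ libraries, with a log2 fold change of -1.12 ± 0.314 (SE, edgeR adjusted p = 0.167). In adults PECAM1 was at 151, 77.6 and 60.2 RPKM in DPLBA and at 49.8, 277 and 352 RPKM in MHLBA. Those groups overlapped through MHLBA replicate 1 alone, the lowest of all 12 long bone libraries in RPKM. In CPM, where its TMM factor of 0.602 enters, that library (284 CPM) lay above DPLBA replicate 3 (235 CPM). Over both stages the log2 fold change was -1.16 ± 0.330 (edgeR adjusted p = 0.0329), a call lost with limma, with a replicate block and in 9 of the 12 fits without 1 library, where the adjusted p reached 0.0986. CDH5 followed with 51.5, 21.4 and 32.5 RPKM in DPLBJ against 99.7, 101 and 72.1 RPKM in MHLBJ, again without overlap (-1.23 ± 0.366, edgeR adjusted p = 0.184). In adult long bone CDH5 was at 62.7, 37.3 and 46.5 RPKM in DPs and at 13.0, 164 and 128 RPKM in MHs, so that MHLBA replicate 1 was the lowest, as it was in CPM (67.5).

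VWF, which platelets and their precursors also carry, did not pass the threshold in the long bone. It was at 32.1, 52.9 and 13.7 RPKM in DPLBJ and 50.3, 49.2 and 62.4 RPKM in MHLBJ, and at 28.4, 34.02 and 35.4 RPKM in DPLBA and 16.1, 62.7 and 90.3 RPKM in MHLBA. The breeds overlapped at both stages, with a log2 fold change over both of -0.63 ± 0.340. The repressor BCL6B had the widest gap of the general endothelial genes in juveniles, with 9.81, 2.95 and 7.05 RPKM in DPLBJ against 25.6, 32.3 and 30.1 RPKM in MHLBJ. These groups stood far apart, at a log2 fold change of -2.02 ± 0.426 (edgeR adjusted p = 0.136). In adults BCL6B overlapped, at 16.0, 6.09 and 7.95 RPKM in DPLBA and 3.01, 16.4 and 33.3 RPKM in MHLBA. Without MHLBA replicate 1, which was chosen after its values were seen, PECAM1, CDH5, VWF and BCL6B were all DEGs in the adult long bone, lower in DPs, with log2 fold changes of -1.55, -1.42, -1.05 and -1.15, and 7 of 10 members were called in place of 3, against 17.5% of all genes.

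In the pituitary none of the same 4 genes (PECAM1, CDH5, VWF and BCL6B) was a DEG between breeds with all libraries kept. PECAM1 was at 25.4, 23.3 and 21.2 RPKM in DPPJ and 8.79, 56.3 and 9.0 RPKM in MHPJ, and at 15.7, 18.9 and 21.0 RPKM in DPPA and 14.7, 34.4 and 21.8 RPKM in MHPA. CDH5 was at 8.02, 10.00 and 9.07 RPKM in DPPJ and 8.06, 53.3 and 7.18 RPKM in MHPJ, and at 12.7, 6.05 and 5.79 RPKM in DPPA and 10.3, 19.4 and 10.8 RPKM in MHPA. The breeds overlapped in both genes at both stages, and MHPJ replicate 2 was the highest library of each. VWF, from 3.56 to 9.07 RPKM in DPs, was at 33.7 RPKM in MHPJ replicate 2 and at 3.54 to 8.40 RPKM in the other MH libraries. BCL6B was the exception in adults, with 1.76, 1.83 and 1.94 RPKM in DPPA above 1.12, 1.27 and 1.14 RPKM in MHPA, a difference under 2-fold (0.79 ± 0.318, edgeR adjusted p = 0.544). Without replicate 1 of both adult groups, the pair poor in hormone genes and chosen after its values were seen, 4 of 10 members were DEGs in the adult pituitary, all lower in DPs, against 6.02% of all genes. They were CDH5 (-1.15), TIE1 (-1.26), FLT4 (-1.53) and STAB2 (-3.69).

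Of the angiopoietin receptors, TIE1 (ENSECAG00000006177) was the one that differed between breeds in both tissues. In the pituitary it was at 7.35, 7.11 and 9.71 RPKM in DPPJ and 14.4, 16.7 and 15.2 RPKM in MHPJ, and at 5.91, 6.66 and 7.47 RPKM in DPPA and 17.6, 17.4 and 21.0 RPKM in MHPA. All 6 DP libraries lay below all 6 MH libraries, and within the groups the values were close. The log2 fold change was -1.14 ± 0.196 in juveniles (edgeR adjusted p = 0.0264), -1.35 ± 0.177 in adults (edgeR adjusted p = 0.257) and -1.25 ± 0.125 over both stages (edgeR adjusted p = 0.000876). The pooled value was called under all 17 alternatives.

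In the long bone TIE1 was at 14.8, 20.5 and 9.46 RPKM in DPLBJ and 61.1, 18.8 and 27.7 RPKM in MHLBJ. These juvenile groups overlapped slightly, between DPLBJ replicate 2 and MHLBJ replicate 2. Adults did not overlap, at 10.4, 12.7 and 14.7 RPKM in DPLBA and 32.04, 30.9 and 43.3 RPKM in MHLBA (-1.62 ± 0.310, edgeR adjusted p = 0.0434). Unlike the junction genes, TIE1 was not low in MHLBA replicate 1. Over both stages the log2 fold change was -1.37 ± 0.312 (edgeR adjusted p = 0.0148), called under all 18 alternatives. In the RefSeq annotation of another horse assembly (TB-T2T) the long noncoding gene LOC111771169 overlaps TIE1. Whether the counting used strand is not given in the sources used here, so reads of the 2 genes may not have been kept apart.

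TEK, the partner of TIE1, gave a different picture in the pituitary. It was at 8.80, 9.11 and 12.1 RPKM in DPPJ and 2.76, 9.05 and 2.19 RPKM in MHPJ, and at 4.72, 7.74 and 7.87 RPKM in DPPA and 4.25, 8.91 and 6.17 RPKM in MHPA. Juvenile values of the breeds overlapped through MHPJ replicate 2 alone, adult values overlapped widely, and no comparison of the breeds called TEK with all libraries. In the long bone TEK was at 22.1, 18.3 and 19.1 RPKM in DPLBJ and 34.3, 37.1 and 34.7 RPKM in MHLBJ, without overlap and with a fold change under 2 (-0.68 ± 0.222). In adults it was at 35.3, 16.7 and 16.6 RPKM in DPLBA and 7.59, 42.9 and 55.2 RPKM in MHLBA, where the DP values lay inside the MH range. Without MHLBA replicate 1, chosen after its values were seen, TEK was called lower in DPs over both stages. Its log2 fold change was then -0.81 (edgeR adjusted p = 0.0212), in a fit that called 16.4% of all genes.

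Within single libraries the balance of the pair differed between breeds in the pituitary. The ratio of TIE1 to TEK in RPKM lay between 0.780 and 1.25 in the 6 DP pituitary libraries and between 1.84 and 6.94 in the 6 MH libraries. No DP library reached the lowest MH library. In the long bone the ratio lay between 0.295 and 1.12 in DPs and between 0.507 and 4.22 in MHs, the highest being MHLBA replicate 1, and the breeds overlapped. These ratios were chosen after the levels were seen and were not tested.

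**Figure D3:**
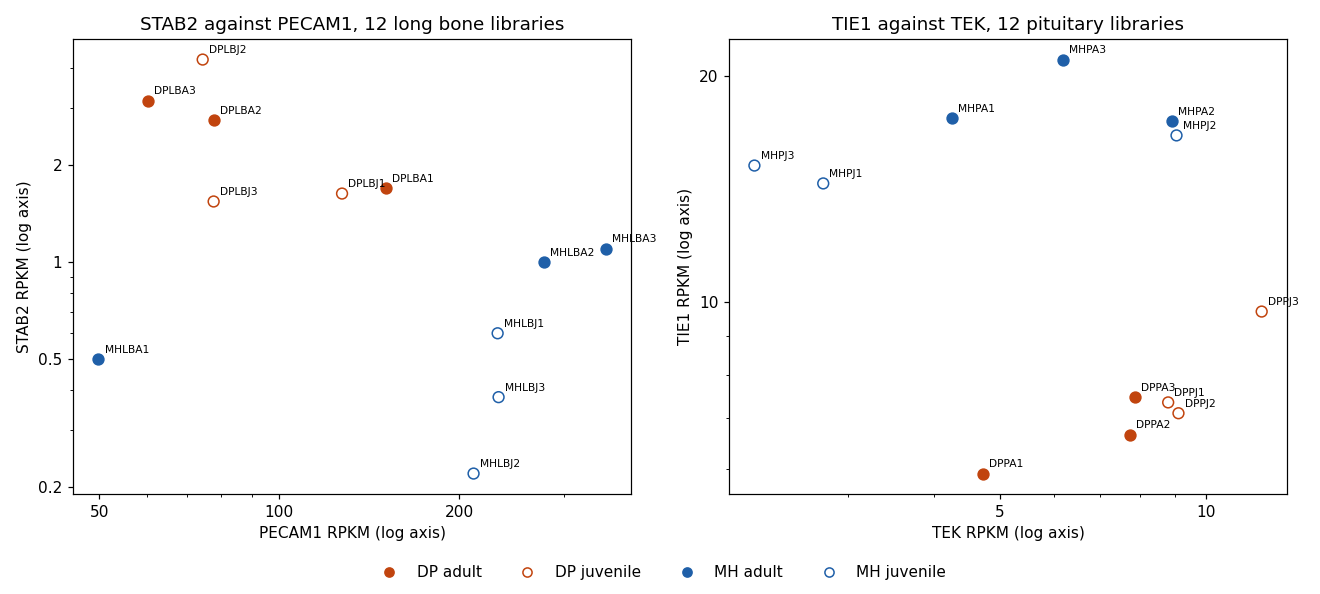
STAB2 against PECAM1 in the 12 long bone libraries (left) and TIE1 against TEK in the 12 pituitary libraries (right), in RPKM on log axes, with open points for juveniles and filled points for adults. On the left DP libraries lie above MH libraries, and on the right all MH libraries lie above 14 RPKM of TIE1 while no DP library passes 9.71 RPKM.

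Among the VEGF receptors no difference between breeds held at both stages of a tissue. KDR was at 25.3, 12.5 and 31.0 RPKM in DPLBJ and 29.6, 44.2 and 36.0 RPKM in MHLBJ, and at 48.2, 21.3 and 35.5 RPKM in DPLBA and 10.7, 23.1 and 44.3 RPKM in MHLBA. The breeds overlapped at each stage, and over both stages the log2 fold change was -0.08 ± 0.306. In the pituitary KDR was at 11.8, 14.6 and 19.1 RPKM in DPPJ and 4.64, 14.9 and 5.71 RPKM in MHPJ, with MHPJ replicate 2 inside the DP range, and adult values (8.57, 10.8 and 13.4 RPKM in DPPA and 10.4, 9.58 and 6.58 RPKM in MHPA) overlapped too.

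FLT1, the receptor that holds VEGFA back, was near 1 RPKM or below in most libraries. It was at 0.59, 0.11 and 0.41 RPKM in DPLBJ, from 45, 10 and 40 reads, and at 0.91, 1.41 and 1.18 RPKM in MHLBJ, from 65, 172 and 131 reads. The juvenile groups did not overlap (-1.54 ± 0.603, edgeR adjusted p = 0.252), and the call was lost in 8 of 13 alternatives. In adults FLT1 was at 0.33, 8.52 and 0.72 RPKM in DPLBA, from 31, 1095 and 76 reads, and at 0.50, 1.77 and 2.90 RPKM in MHLBA. DPLBA replicate 2 thus held more than 10 times the level of either other library of its group, and the adult difference between breeds was 1.04 ± 1.11. FLT4, the VEGFC receptor, did not overlap between breeds in the adult long bone, with 1.73, 4.83 and 2.25 RPKM in DPLBA against 0.39, 0.84 and 0.79 RPKM in MHLBA (2.12 ± 0.4935, edgeR adjusted p = 0.0678). In juveniles, FLT4 at 0.81, 0.39 and 0.88 RPKM in DPLBJ and 1.14, 1.11 and 0.49 RPKM in MHLBJ overlapped.

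In the pituitary both low receptors overlapped between breeds. FLT1 ranged from 0.31 to 0.69 RPKM in DPs and from 0.45 to 1.03 RPKM in MHs. FLT4 ranged from 0.26 to 0.91 RPKM in DPs and from 0.11 to 1.32 RPKM in MHs, where the lowest value, in MHPA replicate 1, rested on 9 reads. The ratio of KDR to FLT1 in RPKM did not overlap there, at 20.3 to 41.7 in DPs and 7.93 to 19.8 in MHs, while in the long bone it ran from 2.50 to 146 in DPs and from 13.0 to 32.5 in MHs.

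STAB2 (ENSECAG00000014647), the sinusoidal scavenger receptor, differed between breeds in opposite directions in the 2 adult tissues. In the long bone it was at 1.63, 4.25 and 1.54 RPKM in DPLBJ and 0.60, 0.22 and 0.38 RPKM in MHLBJ, and at 1.70, 2.76 and 3.17 RPKM in DPLBA and 0.50, 1.00 and 1.1 RPKM in MHLBA. Every DP library lay above every MH library. The log2 fold change was 2.83 ± 0.611 in juveniles (edgeR adjusted p = 0.138), 1.53 ± 0.338 in adults (edgeR adjusted p = 0.0617) and 2.15 ± 0.390 over both stages (edgeR adjusted p = 0.00736), and the pooled value was called under all 18 alternatives. STAB2 as a percentage of PECAM1 in RPKM lay between 1.13% and 5.71% in the DP and between 0.104% and 1.00% in the MH long bone libraries.

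In the adult pituitary the order was the reverse. STAB2 was at 0.04, 0.10 and 0.10 RPKM in DPPA, from 10, 23 and 19 reads, and at 0.70, 1.43 and 1.49 RPKM in MHPA, from 107, 214 and 215 reads. The 3 DPPA libraries were the lowest of all 24 libraries for this gene, with a log2 fold change of -3.73 ± 0.434 (edgeR adjusted p = 0.17). In juveniles STAB2 was at 0.58, 0.64 and 1.49 RPKM in DPPJ and 0.55, 1.36 and 1.15 RPKM in MHPJ, and the breeds overlapped (-0.40 ± 0.532). The long noncoding gene LOC138921309 overlaps STAB2 in the same RefSeq annotation, where PECAM1, FLT1 and VWF also overlap a long noncoding gene and BCL6B overlaps the protein-coding SLC16A11.

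Whether the difference between breeds was unequal in the tissues was itself tested. This contrast does not test whether the sign of the difference changed. By edgeR's adjusted p, STAB2 was not called between breeds in either adult tissue alone. The contrast also treats pituitary and long bone libraries as independent, although they share horses. In adults the difference between breeds in the pituitary minus that in the long bone was -5.34 ± 0.557 on the log2 scale for STAB2 (edgeR adjusted p = 0.00915), the only call among the 10 members, against 0.116% of all tested genes. That call was lost without DPLBA replicate 3, at an adjusted p of 0.05. FLT4 came next with -3.32 ± 0.960 (edgeR adjusted p = 0.159). In juveniles the same contrast called 0 of 10 members, against 4.88% of all tested genes, with STAB2 at -3.23 ± 0.841 (edgeR adjusted p = 0.053). An unadjusted P under 0.05 was given to 3 members, STAB2, TEK and BCL6B, and to 3893 of 15417 genes in all, and DESeq2 called 2 members and 2665 genes.

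Whether the breed difference changed with stage was tested in each tissue, with 0 of 10 members called in the pituitary (0% of all genes) and 0 of 10 in the long bone (0% of all genes). At an unadjusted P under 0.05 there were 3094 genes in the pituitary, STAB2 among them with 3.36 ± 0.702 (edgeR adjusted p = 0.131), and 660 in the long bone, FLT4 among them with -2.44 ± 0.720 (edgeR adjusted p = 0.971). DESeq2 called 1 member in the pituitary and 0 in the long bone, and 1253 and 13 genes in all.

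Between juveniles and adults, 0 to 2 of 10 members were DEGs in each breed and tissue. In the DP pituitary 2 of 10 were DEGs, both higher in juveniles, against 3.56% of all tested genes: STAB2, at 0.58, 0.64 and 1.49 RPKM in DPPJ and 0.04, 0.10 and 0.10 RPKM in DPPA (3.36 ± 0.514), and FLT4, at 0.91, 0.59 and 0.66 RPKM in DPPJ and 0.26, 0.34 and 0.37 RPKM in DPPA (1.05 ± 0.332). Neither pair of groups overlapped, and the edgeR adjusted p was 0.419 for both. In the DP long bone 2 of 10 were DEGs, FLT1 (-3.18 ± 1.26) and FLT4 (-2.10 ± 0.553), both lower in juveniles, against 3.14%, with an edgeR adjusted p of 0.988. The value of FLT1 rested on DPLBA replicate 2. Without it, the log2 fold change of FLT1 was -0.46. In the MH long bone STAB2 alone was a DEG, lower in juveniles (-1.25 ± 0.415, edgeR adjusted p = 0.998), against 2.91%, and in the MH pituitary 0 of 10 members were, against 7.74%. In the MH pituitary edgeR gave 1685 genes and 0 members an unadjusted P under 0.05. DESeq2 gave 769 genes and 0 members an adjusted p under 0.05 there.

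Genes of several other cell types were called between breeds over both stages of the long bone, where 17% of all tested genes were called in one direction or the other. Their part in the values above was not tested. Of 10 leukocyte genes tested 8 were higher in DPs over both stages at an adjusted p under 0.05, and their summed RPKM ran from 35.9 to 7189 in DPLBJ and 649 to 1110 in DPLBA, against 78.2 to 154 in MHLBJ and 53.9 to 67.7 in MHLBA. Platelet and megakaryocyte genes were higher in DPs for 5 of 6 tested. Chondrocyte genes were higher in DPs for 6 of 11, with sums of 44.0 to 7746 RPKM in DPLBJ and 168 to 6083 in DPLBA against 10.4 to 33.2 in MHLBJ and 11.5 to 318 in MHLBA. Osteoblast genes were higher for 4 of 10 and erythroid genes for 2 of 5. The erythroid sum ran from 6.79 to 6755 RPKM in DPLBJ and from 8.29 to 165 RPKM in DPLBA. It ran from 9.43 to 17.2 RPKM in MHLBJ and from 3.19 to 11.6 RPKM in MHLBA. Skeletal muscle genes were lower in DPs for 6 of 6, with sums of 1.65 to 3.11 RPKM in DPs and 2.04 to 285 RPKM in MHs, and adipocyte genes for 2 of 8, with 1876 to 6918 RPKM in DPs and 755 to 9654 RPKM in MHs. Pericyte and smooth muscle genes, from the cells that wrap vessels, were lower in DPs for 3 of 12, with a median log2 fold change of -0.73 against -0.01 for all tested genes. The counts of 2 of 8 adipocyte genes and 3 of 12 pericyte and smooth muscle genes are near the share of all genes.

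In the pituitary the other cell types separated juveniles by breed, and their part was not tested. All 9 hormone genes tested were DEGs, higher in DPPJ than in MHPJ, where 20.3% of all genes were DEGs. MHPJ replicate 2, the library with most PECAM1, CDH5 and VWF in the pituitary (56.3, 53.3 and 33.7 RPKM), also had the highest sums of skeletal muscle genes (614 RPKM), pericyte and smooth muscle genes (484 RPKM) and erythroid genes (282 RPKM) among pituitary libraries. Without that library, chosen after its values were seen, 6 of 10 members were DEGs in the juvenile pituitary. PECAM1, TEK, KDR, FLT4 and BCL6B were then higher in DPs, with log2 fold changes from 1.24 to 1.87, and TIE1 was still lower (-1.03), against 29.9% of all genes. PECAM1 and CDH5, at -0.32 and -1.58 with all libraries, were then at 1.24 and 0.10.

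The members did not move as one block across libraries. Over the 12 long bone libraries, in log2 CPM and as a description, PECAM1, CDH5, TEK and BCL6B rose and fell together, with Pearson's r of 0.93 for PECAM1 and TEK, 0.90 for CDH5 and TEK and 0.88 for PECAM1 and CDH5. STAB2 ran against them, with r of -0.74 with BCL6B and -0.65 with PECAM1. TIE1 was loosely tied to them, at 0.14 with TEK and 0.43 with PECAM1. Over the 12 pituitary libraries the closest pairs were CDH5 and VWF (0.87) and TEK and KDR (0.83), while TIE1 had r of -0.54 with BCL6B and -0.43 with TEK. These libraries share breed, stage and cell makeup, which enter each r.

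**Figure D4:**
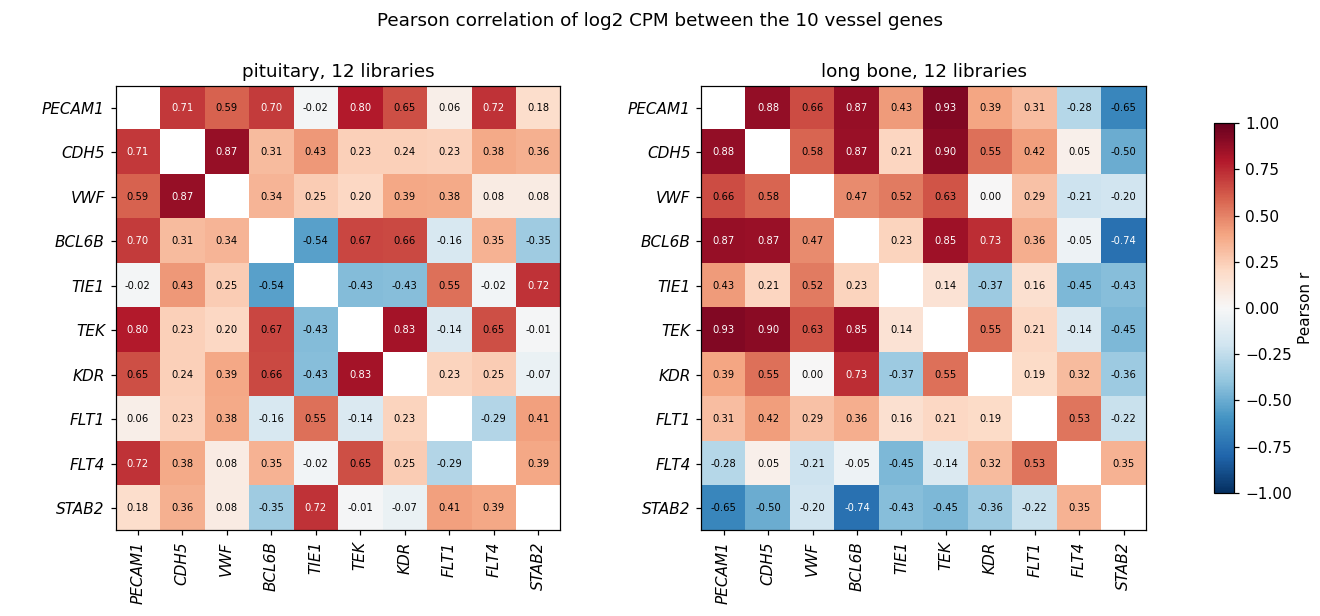
Pearson correlation of log2 CPM between each pair of the 10 vessel genes over 12 pituitary (left) and 12 long bone libraries (right), red for positive and blue for negative values. In the long bone PECAM1, CDH5, BCL6B and TEK form a red block with r of at least 0.85, and STAB2 is blue against all but FLT4.

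The gene whose log2 CPM was most like the mean of the members in the long bone was CLEC14A (r = 0.94 over 12 libraries, of 12990 genes), itself an endothelial surface protein, followed by SLC16A13, GPR116, RTP3 and DOCK6 (0.92 to 0.94). In the pituitary it was TMCO4 (0.97, of 13517 genes), then SLC8B1, TSPAN1, CBL and TBETA-RII (0.94 to 0.96). The genes most like STAB2 in the long bone were ABHD11 (0.97), FAM173A, C19orf52, ACOT8 and NEIL1 (0.93 to 0.96), none of them on the vessel lists.

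The wider vessel programme was read from 5 lists of genes that are not members, of which 66 were found. Over both stages of the long bone 12 of 64 tested genes were called, 9 lower and 3 higher in DPs, where 17% of all tested genes were called. The lists were not tested against each other. The arterial and Notch genes carried 5 of the 9, with 5 of 13 lower and 0 higher in DPs and a median log2 fold change of -0.66 against -0.01 for all genes. DLL4, the Notch ligand of arterial and sprouting endothelium, was at 5.13, 1.66 and 1.58 RPKM in DPLBJ and 20.8, 13.1 and 22.5 RPKM in MHLBJ, and at 4.22, 3.37 and 3.94 RPKM in DPLBA and 2.92, 11.6 and 31.2 RPKM in MHLBA. The breeds were apart but for MHLBA replicate 1, with a log2 fold change of -2.25 ± 0.436 (edgeR adjusted p = 0.00861). The endothelial receptor NOTCH4 fell by 1.83 on the log2 scale (SE 0.329, edgeR adjusted p = 0.00705) and EFNB2, the ephrin of arteries, by 1.50 (SE 0.430, edgeR adjusted p = 0.0335). JAG1 (-1.04) and HEYL (-0.88), a ligand and a target of Notch, were the other 2.

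Of the ligands and co-receptors 1 of 11 was called, VEGFC, the ligand of FLT4. It was at 22.2, 26.1 and 32.2 RPKM in DPLBJ and 52.9, 82.5 and 70.7 RPKM in MHLBJ, and at 33.9, 23.1 and 21.6 RPKM in DPLBA and 17.0, 102 and 88.6 RPKM in MHLBA. In RPKM every DP library lay below every MH library except MHLBA replicate 1. The fitted log2 fold change, where the TMM factor of 0.602 of that library enters, was -1.29 ± 0.264 (edgeR adjusted p = 0.0106). Higher in DPs were SELP (P-selectin, of venous endothelium and platelets) with 1.93 ± 0.512 (edgeR adjusted p = 0.0251), TAL1 (a factor of blood and endothelium) with 1.25 ± 0.372 (edgeR adjusted p = 0.0383) and ENG with 0.72 ± 0.212. Other pan-endothelial genes gave 3 of 19, ENG and, lower in DPs, ROBO4 (-1.11) and RASIP1 (-1.05), and transcription factors gave 2 of 12, TAL1 and, lower, ETS2. Of the lymphatic and sinusoidal genes, the class of STAB2, 1 of 9 was called, SELP.

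**Figure D5:**
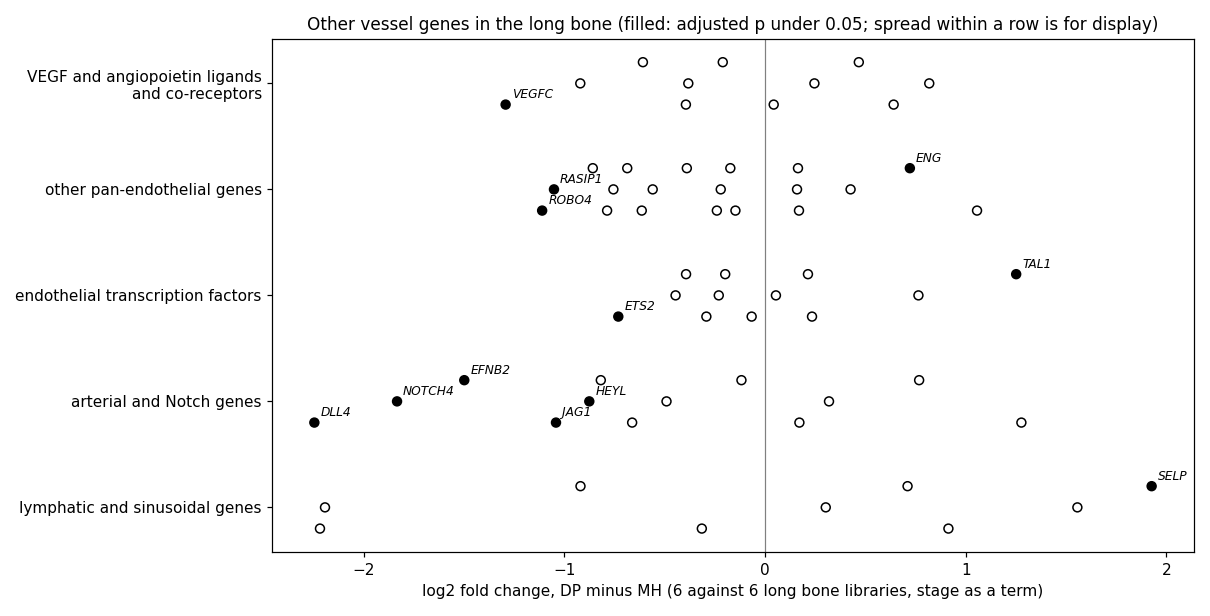
Log2 fold change (DP minus MH, 6 against 6 long bone libraries with stage as a term) of the non-member vessel genes by list; filled and named points have an adjusted p under 0.05. The 5 called arterial and Notch genes all lie below 0, and SELP, TAL1 and ENG are the called genes above 0.

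At the single stages of the long bone, by P and fold change, 12 of 61 vessel list genes were DEGs in juveniles (2 higher and 10 lower in DPs) and 8 of 63 in adults (4 higher and 4 lower), where 13.8% and 18.3% of all genes were. DLL4, NOTCH4 and VEGFC were lower and SELP was higher in DPs at both stages. EFNB2 and JAG1 were lower and TAL1 was higher in juveniles, with an edgeR adjusted p from 0.163 to 0.259. The other juvenile DEGs, all lower in DPs, were the ligands VEGFA (-1.05) and PGF (-1.20) and the pan-endothelial ROBO4, ECSCR and RASIP1 (edgeR adjusted p from 0.153 to 0.249). In adults the lymphatic and sinusoidal class gave 3 of 8 genes higher in DPs, GPR182 (2.73 ± 0.641), SELP (1.37 ± 0.375) and STAB1 (1.21 ± 0.396), the relative of STAB2. Their edgeR adjusted p lay between 0.0688 and 0.124. PROX1, the regulator of lymphatic identity, was lower (-3.99 ± 1.11) at 0.03 to 0.10 RPKM in DPLBA against 1.38, 0.59 and 0.13 RPKM in MHLBA, and GIMAP4 was higher (1.40 ± 0.402).

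In the pituitary, with both stages fitted together, 0 of 61 vessel list genes were called by edgeR, and 7 by DESeq2, which called 8.65% of all genes. In adults 2 of 60 were DEGs, GJA4 (1.55 ± 0.427) and NRP2 (1.18 ± 0.433), both higher in DPs, against 2.93% of all genes, and their edgeR adjusted p was 0.503 and 0.515. With the replicate number as a block, 5 vessel list genes were DEGs, against 4.22% of all genes. The number does not pair horses of different breeds, and replicate 1 of both adult groups was poor in hormone genes. In juveniles 16 of 60 were DEGs (6 higher and 10 lower in DPs), where 20.3% of all genes were. PLVAP, which forms the diaphragms of fenestrated capillaries, was at 200, 163 and 162 RPKM in DPPJ and 7.97, 25.8 and 13.6 RPKM in MHPJ (3.25 ± 0.502, edgeR adjusted p = 0.0226). It was also at 26.5 RPKM in DPPA replicate 1 and 34.04 RPKM in MHPA replicate 1, and at 110 to 200 RPKM in the other 4 adult libraries, so its 5 low values fell on the 5 libraries with hormone gene sums of 141 RPKM or less. BMX (-3.67 ± 1.33), GJA5 (-3.64 ± 0.851), SVEP1 (-3.00 ± 0.443) and ANGPT4 (-2.54 ± 1.01) were lower and FIGF, a lymphatic VEGF, was higher (2.53 ± 0.636) in DPPJ. Between tissues 52 of 65 vessel list genes were lower and 3 higher in the pituitary at an adjusted p under 0.05, the 3 being FIGF, GATA2 and PROX1. Of all 16131 tested genes 61.8% were called in that fit, 4717 lower and 5245 higher in the pituitary.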

How the data were processed

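RNA-seq of 24 libraries of female horses was analysed. The authors removed ribosomal RNA, made directional libraries, trimmed reads and used the EquCab 3.0 build of the horse. The labels' processing notes name bcl2fastq, TopHat2 and edgeR, while the paper's methods name Salmon, and which of these gave the deposited values, and whether strand was used, is not given in the sources used here. The authors deposited whole-number counts of reads per gene (24232 genes, not normalized) and RPKM per gene (24248 genes). Members were matched by the gene name in both tables, and all 10 matched. RPKM was used to compare levels between genes and counts for the tests. In DPLBA replicate 2 the RPKM of 371 genes lay more than 2% from the value its reads give, none of them a member, but GJA4, GJA5 and ETS2 among them.

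Counts were filtered with filterByExpr (minimum count 10), scaled by TMM and tested with the quasi-likelihood test of edgeR 4.0.16 in R 4.3.3, with Benjamini-Hochberg adjustment over all tested genes. Single groups were compared as 3 against 3 libraries and called at P under 0.05 and a fold change over 2. Stages together, tissues and interactions were called at an adjusted p under 0.05. Values after ± are standard errors of log2 fold changes. An exact two-sided permutation test of 3 against 3 cannot go below 0.1. The scripts were tested on simulated data. P-values weigh a difference against the spread between libraries that the terms of each fit leave, with the spread of a gene moderated by that of all genes. Alternatives were no TMM, no filter, DESeq2 1.42.0, limma 3.58.1 on log2(RPKM + 1), a replicate block, joint fits and leaving out each library. Between tissues the block was a term for each assumed horse.

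Members and lists were chosen with earlier results of these data known. The 15 lists other than the members hold 5 of vessel genes. At most 6 called vessel genes per breed comparison, those with the largest absolute log2 fold change, were named by rule. RASIP1, ROBO4, ENG, ETS2, JAG1, HEYL, STAB1, VEGFA, PGF and ECSCR in the long bone, and FIGF, GATA2 and PROX1 between tissues, were named after their values were seen. So was VEGFC at the single stages of the long bone. VEGFD, ADGRL4 and CNMD were matched as FIGF, ELTD1 and LECT1. The most similar genes were the 5 with the highest Pearson r. Whether libraries of the same replicate number went together was checked by the correlation of deviations from group means. They did in the adult pituitary between breeds (0.609, 0.459 and 0.308) and in no other comparison. These are different horses of different breeds, so the number does not pair horses there. Replicate 1 of both groups was poor in hormone genes, and its part in these correlations was not tested. No sequence is printed because no genome of this build was used here.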

Additional observations from a re-analysis of the deposited data

Results flagged for a closer look

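The breed difference of STAB2 in adults differed between tissues, at -5.34 on the log2 scale for the pituitary minus the long bone, as tested by the interaction term. Each of 40 sets of 6 libraries (a gene in a breed and tissue) was checked for a single library far from the others by Dixon's criterion, and 5 were found, where chance gives about 1 in 20. MHPJ replicate 2 was high among MH pituitary libraries for CDH5 (183 CPM), VWF (387 CPM) and BCL6B (4.46 CPM). DPLBA replicate 2 was high among DP long bone libraries for FLT1 (55.7 CPM). DPPJ replicate 3 was high among DP pituitary libraries for TIE1 (35.3 CPM), still below all MH libraries.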

How the results depend on the processing

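No alternative reversed a member fold change that was called with all libraries kept. Turns of members that were not called were not counted. PECAM1 and CDH5 in the juvenile pituitary turned from -0.32 and -1.58 to 1.24 and 0.10 without MHPJ2. In the adult pituitary FLT1 had means of 2.45 CPM in DPPA and 3.60 CPM in MHPA, and VWF 71.6 and 64.9 CPM. Without DPPA1 and MHPA1 their log2 fold changes were 0.24 and -0.017. Of 232 called fold changes refitted with all libraries kept, 191 kept direction and side of the threshold, 32 lost the call and 9 gained one. With 1 library left out, 473 of 504 kept both, 23 lost the call and 8 gained one. Counts of members called moved by over 1.5 times as follows. By DESeq2 the juvenile pituitary gave 2, the pooled pituitary 2, the pooled long bone 5, and the interactions 1 (stage, pituitary), 2 (tissue, juvenile) and 2 (tissue, adult). DESeq2 also called more genes in all: 8.65% against 0.403% by edgeR in the pooled pituitary, and 1253 against 0 and 2665 against 753 genes in the first 2 interactions. Where no share of all genes is given beside a count, the count cannot be read as a stronger or weaker result for the members. With the adjusted p as the call the adult pituitary, juvenile long bone, DP pituitary, MH long bone and DP long bone by stage gave 0, and the adult long bone 1. By limma the stages gave 0 in the DP pituitary and MH long bone and 1 in the DP long bone, and without TMM 0 in the MH long bone. With all 12 libraries fitted together the juvenile pituitary gave 2 and the DP pituitary by stage 1. With a replicate block the DP comparisons of stage gave 1 in either tissue. Libraries of the same replicate number went together only in the adult pituitary between breeds, where the block changed no member's call. Without DPPA1 and MHPA1, chosen after seeing the data, the adult pituitary gave 4 (6.02% of all genes), and without DPLBA2 and MHLBA1 the pooled long bone gave 7 (13.5%).

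Leaving out each library gave 1 to 6 members in the juvenile pituitary (6 without MHPJ2, against 29.9% of all genes) and 3 to 7 in the juvenile long bone. It gave 3 to 7 in the adult long bone (7 without MHLBA1, against 17.5%) and 2 to 6 in the pooled long bone (6 without MHLBA1, against 16.4%). By stage it gave 0 to 2 in the MH pituitary, 1 to 2 in the DP pituitary, 0 to 2 in the MH long bone and 1 to 2 in the DP long bone. The interactions gave 0 to 1 (stage, pituitary), 0 to 4 (tissue, juvenile, 4 without MHPJ2) and 0 to 1 (tissue, adult). Vessel list genes called fell with the adjusted p to 7 in the juvenile pituitary and to 0 in each of the other 3 comparisons of breed at 1 stage. Limma gave 0 in the adult pituitary, 3 for adult long bone and 4 for pooled long bone, no TMM 6 in the pooled long bone, DESeq2 7 in the pooled pituitary, the replicate block 5 in the adult pituitary and the fit without DPPA1 and MHPA1 7. Without 1 library they ranged from 2 to 5 in the adult pituitary, 7 to 20 in the juvenile long bone, 7 to 15 in the adult long bone, 0 to 2 in the pooled pituitary and 4 to 17 in the pooled long bone. The causes were not tested. Leaving out a library also moves the share of all genes called, from 20.3% to 29.9% in the juvenile pituitary without MHPJ2. Counts given here without that share, among them those of the interactions and the vessel lists, cannot be read as results about the genes counted. Depth limits FLT1, FLT4 and STAB2 most, with as few as 10, 9 and 10 reads in a library.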
